A study of Mus musculus with 24 samples.

Results

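Lungs taken at day 14 after irradiation of the thorax were compared with unirradiated lungs of the same day by small RNA sequencing. The comparison took every library that the labels place at day 14, 4 labelled Radiation and 4 labelled Control, 8 of the 24 libraries in the series. All mice were C57BL/6, an inbred laboratory strain, and were 6 to 8 weeks old when they were divided into groups. The irradiated mice received X-rays (225 kV, 200 cGy/min) over the whole thoracic cavity to a total of 15 Gy, with the rest of the body spared. The labels do not say how the control mice were handled. They also do not say that each library is a separate animal, so the p-values measure only the spread between these libraries. The title of the study concerns miR-208a-3p and radiation-induced lung injury. Of 1271 annotated mature miRNAs in the day 14 table, 466 had enough counts to be tested, and they were tested together with 33 predicted miRNAs, 499 in all.

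MicroRNAs (miRNAs) are short RNAs that guide the silencing of messenger RNAs, and they recognise their targets mainly through bases 2 to 8, the seed. DNA damage activates the transcription factor p53, which induces the miR-34 family, and miR-34 miRNAs restrain genes that drive the cell cycle. In the irradiated lung an early phase of cell loss and inflammation precedes fibrosis.

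The sequences of the miRNAs on which the comparison turned are given 5′ to 3′ from RefSeq (GRCm38.p6), with the seed in capitals. The first set holds the miRNAs whose 4 irradiated libraries all lay above the 4 controls, together with miR-449a-5p, which shares the seed of miR-34a-5p.
miR-34a-5p: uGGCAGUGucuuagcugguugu
miR-449a-5p: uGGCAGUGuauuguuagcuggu
miR-499-5p: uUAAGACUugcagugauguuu
miR-24-1-5p: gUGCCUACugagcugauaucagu
miR-30e-3p: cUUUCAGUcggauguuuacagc
The second set holds miRNAs whose 4 irradiated libraries all lay below the 4 controls.
miR-342-3p: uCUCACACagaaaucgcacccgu
miR-146b-5p: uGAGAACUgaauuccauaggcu
miR-92a-1-5p: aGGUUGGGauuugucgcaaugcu
miR-503-3p: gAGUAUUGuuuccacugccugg
miR-224-5p: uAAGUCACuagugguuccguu
miR-582-5p: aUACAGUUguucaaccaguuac
miR-1298-5p: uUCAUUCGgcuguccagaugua
The third set shows 3 members of the miR-15/16 family, which share 1 seed and whose summed level separated the groups, and miR-208a-3p of the study's title.
miR-15a-5p: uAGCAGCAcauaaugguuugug
miR-16-5p: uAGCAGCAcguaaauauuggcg
miR-322-5p: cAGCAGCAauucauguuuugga
miR-208a-3p: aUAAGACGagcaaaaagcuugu

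The libraries were of similar depth, with 2899300 to 3301198 counts each and 858 to 915 annotated miRNAs detected. The most abundant markers listed for endothelial, epithelial and ciliated cells were plentiful in every library. Other members of these lists, such as miR-126b-3p and miR-449c-5p, were scarce. miR-126a-3p, made by endothelial cells, had the highest mean level of all, 40375 ± 4375 CPM (counts per library total, scaled up to a shared total) in controls and 40649 ± 2443 CPM after irradiation (SD, n = 4 each). The airway and alveolar epithelial miR-200c-3p stood at 13765 ± 1193 and 12822 ± 1885 CPM, and miR-449a-5p of ciliated cells at 7518 ± 1524 and 6251 ± 2083 CPM. Control library 2 stood apart in miR-206-3p of skeletal muscle and in miRNAs of stratified epithelium, and irradiated library 2 in the liver miRNA miR-122-5p; their values are given with the results they touch. The closest pair of libraries within a group, irradiated 1 and 3, differed by a chi-square of 102.58 per degree of freedom, so no pair agreed within sampling noise.

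The clearest difference at day 14 was in miR-34a-5p, the miRNA that p53 induces, which was 1.76-fold higher in irradiated lungs, with all 4 irradiated libraries above all 4 controls. The miR-15/16 family, summed, stood slightly below the controls in all 4 irradiated libraries, but the groups overlapped under other scalings of the libraries. Also below all controls were miR-342-3p, abundant in lymphocytes, and, by a narrow gap, the inflammation-induced miR-146b-5p. The lists that these 2 miRNAs belong to held members on both sides of 0. miR-208a-3p, a heart miRNA, was higher in 3 of 4 irradiated libraries. No miRNA passed the edgeR test with Benjamini-Hochberg adjustment (0 of 499, 0%); 27 of 499 (5.41%) had an unadjusted p under 0.05, DESeq2 called 1 miRNA and limma-voom none. The log2 fold change of irradiated over control lungs lay above 0 for 259 miRNAs (51.9%) and below 0 for 240 (48.1%), with a median of 0.01. In 12 of 499 miRNAs (2.4%), all annotated, the 4 irradiated libraries did not overlap the 4 controls: 4 lay above (0.802%) and 8 below (1.6%). For a miRNA with no difference, such separation has a probability of 0.0286 (70 splits of 4 against 4). The share of 2.4% is near that, so separation alone does not mark a miRNA as changed. The miRNAs that lay above were miR-34a-5p, miR-499-5p, miR-24-1-5p and miR-30e-3p. Those that lay below were miR-342-3p, miR-146b-5p, miR-92a-1-5p, miR-503-3p, miR-224-5p, miR-582-5p, miR-1298-5p and miR-297b-5p.

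**Figure D1:**
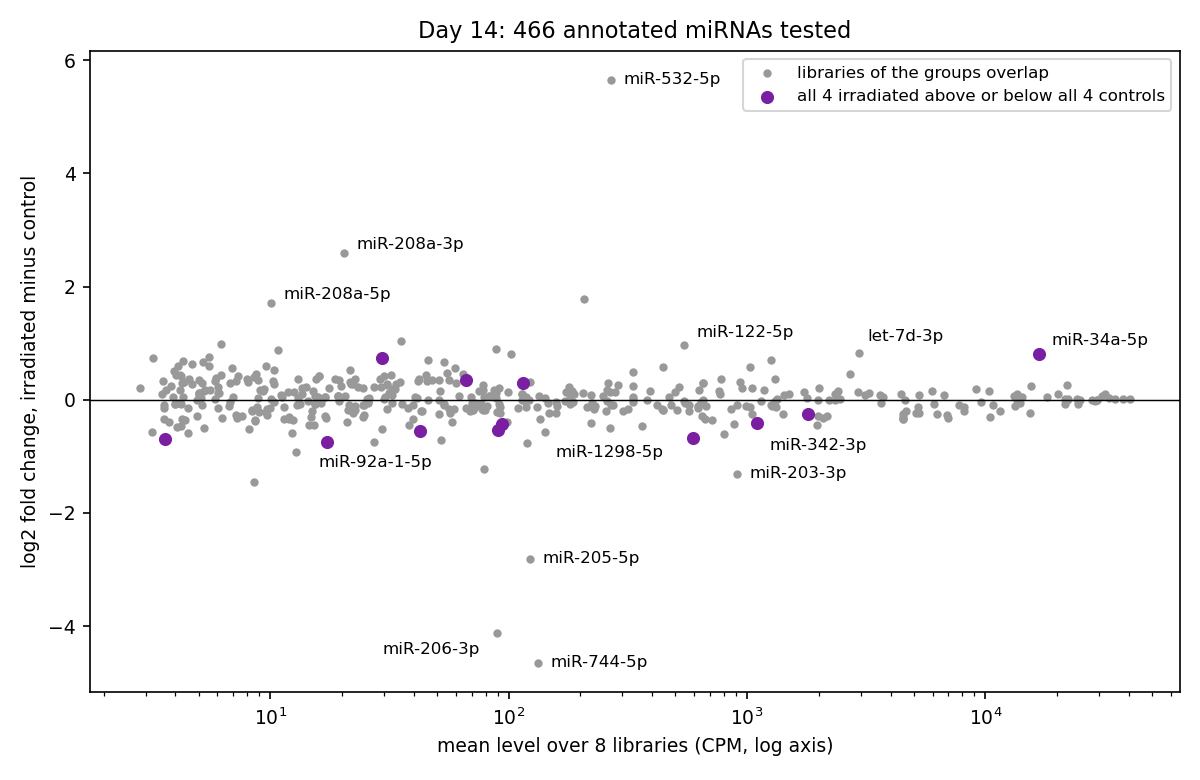
Log2 fold change of irradiated over control lungs at day 14 (vertical axis) against the mean level over 8 libraries in CPM (horizontal log axis) for 466 annotated miRNAs; purple points are the 12 whose groups do not overlap. miR-34a-5p is the purple point with the highest level, and miRNAs with larger fold changes, such as miR-532-5p, miR-206-3p and miR-744-5p, overlap between groups.

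miR-34a-5p, the p53-induced miRNA, had the lowest p of all miRNAs tested. Its level was 12464, 11785, 12731 and 11824 CPM in control libraries 1 to 4 and 22809, 23646, 24793 and 14574 CPM in irradiated libraries 1 to 4. The controls lay within a narrow band, and irradiated library 4 stood closer to them than to the other irradiated libraries, though above all of them. The group means were 12201 ± 471 and 21456 ± 4659 CPM (SD, n = 4 each), a log2 fold change of 0.81 ± 0.16 (SE), and edgeR gave an unadjusted p of 0.000656 and an adjusted p of 0.328. The exact two-sided permutation test gave p = 0.0286, the smallest that 70 splits of 4 against 4 allow; within the 4 pairs of same-numbered libraries, all 4 higher, it gave p = 0.125, again the smallest possible. The adjusted p was 0.00137 without irradiated library 4 (edgeR), where the log2 fold change was 0.99, and it was 0.02 with no filter on low counts, 0.024 with DESeq2 and 0.0325 with all 24 libraries in 1 edgeR fit. Under the other 16 of 20 alternatives miR-34a-5p did not pass, with an adjusted p of up to 0.97, reached without irradiated library 3, and its log2 fold change lay between 0.75 and 0.99 under all 20. In whole lung, fewer cells of a type and less RNA per cell cannot be told apart, for this and every other miRNA described. The hairpin lies at chr4:150068454-150068555 (GRCm38.p6, plus strand) in an exon of Gm37795, a gene model still to be tested experimentally. Its other arm, miR-34a-3p, was near the detection limit and was not tested, with 0.927 to 1.78 CPM in controls and 1.55 to 5.92 CPM after irradiation.

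**Figure D2:**
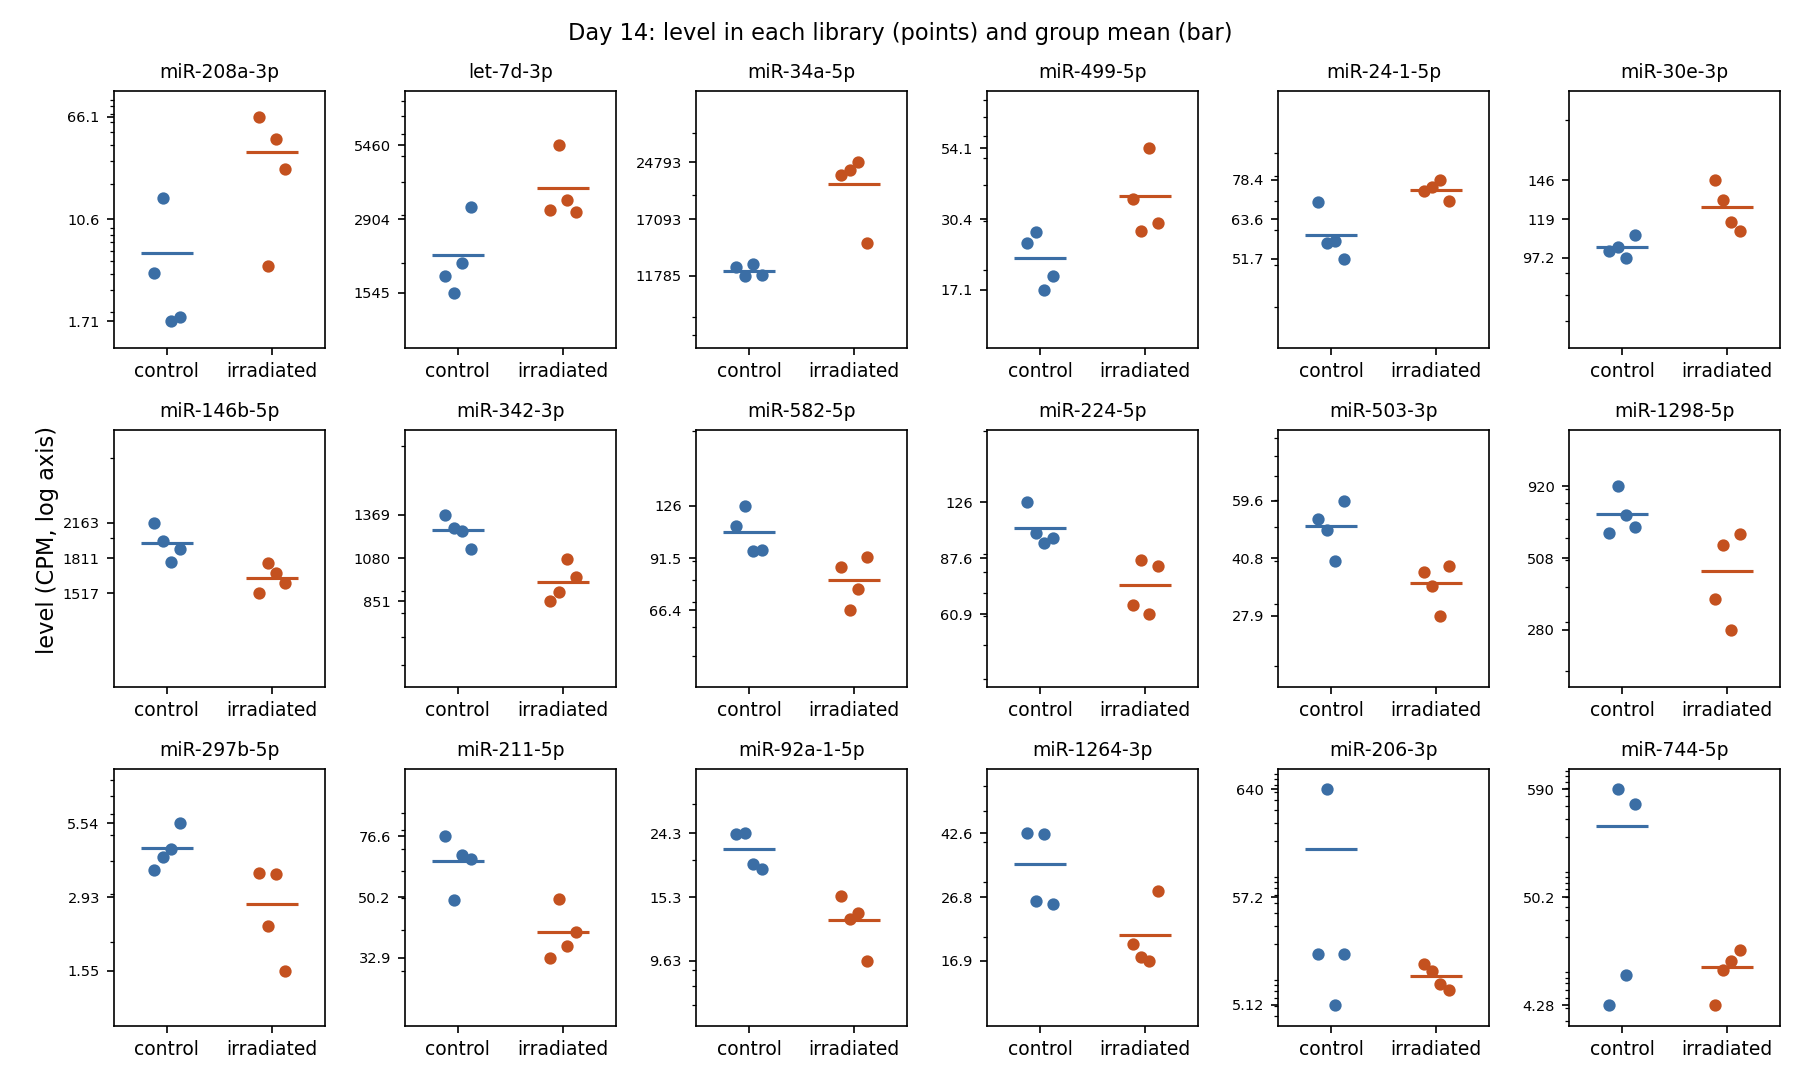
Level in CPM (vertical log axis, its range differing between panels) of 18 miRNAs in each control and irradiated library, with the group mean as a bar; the panels run from the highest to the lowest log2 fold change. miR-34a-5p has 4 tight control points between 11785 and 12731 CPM and 3 irradiated points at or above 22809 CPM, while the control means of miR-206-3p and miR-744-5p rest on 1 and 2 libraries.

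The relatives of miR-34a-5p lay on either side of their control levels. Of 14 p53-linked miRNAs listed, 12 were in the table and 8 were tested, 4 above 0 and 4 below 0, with a median log2 fold change of -0.07 against 0.01 over all miRNAs tested. This median changed sign with libraries scaled by the totals behind the deposited RPM values. There 502 rather than 499 miRNAs passed the filter, so the members behind the median could also differ. miR-34c-5p had a log2 fold change of -0.32 ± 0.15 and miR-34b-5p one of -0.24 ± 0.20 (SE); both come from a hairpin pair that ciliated cells express. miR-192-5p, which p53 also induces, had 980 ± 223 CPM in control and 1128 ± 200 CPM after irradiation. In none of these 3 did the groups separate.

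miRNAs with 1 seed can act on the same targets, so levels were also summed by seed. RefSeq held a sequence for 380 of the 466 annotated miRNAs tested; these carried 307 seeds, 43 of them shared by at least 2 miRNAs with separate counts. The summed level separated the groups for 2 of these 43 families (4.65%). For a family with no difference the probability is 0.0286, so separation alone does not mark a family as changed. The miRNAs that RefSeq lists with the seed GGCAGUG (miR-34a-5p, miR-34b-5p and miR-449a-5p) summed to 22519, 18745, 21516 and 22255 CPM in controls 1 to 4 and to 27572, 30923, 32828 and 24703 CPM in irradiated libraries 1 to 4. Its mean was 21259 ± 1729 and 29006 ± 3599 CPM, 1.36-fold, and the groups overlapped under upper-quartile scaling. miR-34a-5p was the one member of the 3 above 0. miR-449a-5p, at 8514, 5653, 6925 and 8983 CPM in controls and 3624, 6320, 6338 and 8722 CPM after irradiation, had a log2 fold change of -0.27 ± 0.25 (SE). With miR-34c-5p added, which had 2304 ± 317.5 CPM in controls and 1850 ± 279 CPM after irradiation, the sum was 20673 to 24705 CPM in controls and 26834 to 34844 CPM after irradiation, still without overlap.

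The second family was the miR-15/16 family (seed AGCAGCA), which represses cyclins and other genes of cell division. Its 6 tested members, miR-15a-5p, miR-15b-5p, miR-16-5p, miR-195a-5p, miR-322-5p and miR-497a-5p, had log2 fold changes below 0 in 6 of 6 cases. Their summed level was 54330, 56025, 57631 and 54325 CPM in controls and 47964, 51385, 49540 and 52180 CPM after irradiation. Every irradiated library thus lay below every control, with means of 55578 ± 1586 and 50267 ± 1892 CPM, a ratio of 0.904. The groups overlapped under upper-quartile scaling and with the totals behind the RPM values. In single members the groups overlapped: miR-322-5p had 11527 ± 2312 and 9343 ± 718 CPM, miR-15a-5p 6776 ± 819 and 5709 ± 666 CPM, and miR-16-5p, the most abundant, 25136 ± 1169 and 23941 ± 1101 CPM. In the longer miR-15/16 list, which adds miR-322-3p and both arms of miR-503, 8 of 9 tested members were below 0, with a median of -0.22. It was the one list of 22 (4.55%) whose summed level did not overlap, at 54752 to 57934 CPM in controls and 48339 to 52598 CPM after irradiation. The 6 seed family members make up nearly all of this sum, so it is not a separate result.

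miR-503-3p, the less abundant arm of a hairpin next to miR-322 at chrX:53053984-53054054 (minus strand), was below all controls. It had 52.8, 49.2, 39.9 and 59.7 CPM in controls 1 to 4 and 37.2, 34.01, 27.9 and 38.8 CPM in irradiated libraries, a log2 fold change of -0.55 ± 0.19 (adjusted p = 0.804, edgeR). The other arm, miR-503-5p overlapped at 96.2 ± 14.1 and 82.4 ± 16.4 CPM. The cluster on chromosome X that holds miR-322, miR-503, miR-450 and miR-542 (chrX:53047997-53054349) had 8 of 10 tested miRNAs below 0, with a median of -0.10.

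The proliferation-linked clusters miR-17~92 and miR-106b~25 had 12 tested members of 14, 4 above 0 and 8 below 0, with a median of -0.15. miR-92a-1-5p, the minor arm of a miR-17~92 hairpin (chr14:115044427-115044506, plus strand, exon of Mir17hg), stood at 24.1, 24.3, 19.5 and 18.8 CPM in controls and at 15.5, 13.1, 13.6 and 9.63 CPM after irradiation. All irradiated libraries were lower, with a log2 fold change of -0.74 ± 0.20 (adjusted p = 0.804, edgeR). The major arm, miR-92a-3p, which also comes from a second locus on chromosome X, overlapped at 5455 ± 570 and 4988 ± 1104 CPM. miR-17-5p, the miRNA after which the cluster is named, stood at 121.5 ± 17.5 and 121.8 ± 20.5 CPM.

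Of the 6 lymphoid and 11 inflammatory miRNAs tested, 1 in each list separated the groups, miR-342-3p and miR-146b-5p. Over all miRNAs tested 12 of 499 (2.4%) did so, and 1 member of a short list says little about the list. miR-342-3p, abundant in lymphocytes and made from an intron of Evl (chr12:108658620-108658718, plus strand), had 1369, 1273, 1252 and 1132 CPM in controls and 851, 895, 1073 and 970 CPM after irradiation. The log2 fold change was -0.41 ± 0.12, with an edgeR unadjusted p of 0.00878 and an adjusted p of 0.804. The other arm, miR-342-5p, overlapped at 59.5 ± 11.1 and 53.3 ± 10.7 CPM. Across the 6 lymphoid miRNAs tested, 2 were above 0 and 4 below 0, with a median of -0.14. miR-150-5p of mature B and T cells stood at 16630 ± 1616 and 14111 ± 1250 CPM, with overlapping libraries, and miR-181a-5p, abundant in immature lymphocytes, at 27974 ± 2969 and 28051 ± 2536 CPM. The neutrophil and monocyte miRNA miR-223-3p had 1012 ± 221 and 754.5 ± 108 CPM, and both myeloid arms were below 0.

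miR-146b-5p, induced by inflammatory signalling and a brake on it, had 2163, 1974, 1772 and 1895 CPM in controls and 1517, 1766, 1680 and 1598 CPM after irradiation. The gap between the groups was narrow, between 1766 and 1772 CPM, and the log2 fold change was -0.25 ± 0.11 (adjusted p = 0.883, edgeR). Its relative miR-146a-5p, which has the same seed, overlapped at 12246 ± 999 and 10676 ± 1360 CPM. Of 11 inflammatory miRNAs tested, 6 were above 0 and 5 below 0, with a median of 0.02 that changed sign under the RPM totals. miR-21a-5p, widely followed in inflammation and fibrosis, stood at 22091 ± 1508 and 22438 ± 2368 CPM, and miR-155-5p of activated leukocytes at 335 ± 57.6 and 327 ± 86.9 CPM.

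3 further miRNAs lay above all controls. miR-499-5p, from a hairpin inside Myh7b, a muscle myosin gene (chr2:155622880-155622958, plus strand, intron), had 25.0, 27.3, 17.1 and 19.1 CPM in controls and 35.9, 27.5, 54.1 and 29.5 CPM after irradiation. Irradiated library 2 stood just above control 2, the highest control, and the log2 fold change was 0.73 ± 0.27 (adjusted p = 0.804, edgeR). miR-24-1-5p had 69.8, 56.0, 56.6 and 51.7 CPM in controls and 73.7, 75.2, 78.4 and 70.2 CPM after irradiation, a log2 fold change of 0.35 ± 0.16 (adjusted p = 0.883, edgeR). Its cluster on chromosome 13, miR-23b, miR-27b and miR-24-1, had 4 of 5 tested miRNAs above 0, and the related cluster miR-23a, miR-27a and miR-24-2 on chromosome 8 had 6 of 6, with a median of 0.17. The counts share miR-24-3p (0.27), which both loci encode. miR-30e-3p, from an intron of Nfyc, had 101, 103, 97.2 and 110 CPM in controls and 146, 132, 117 and 112 CPM after irradiation (log2 fold change 0.30 ± 0.16). The main arm of that hairpin, miR-30e-5p, overlapped at 560 ± 333 and 538 ± 137 CPM.

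The other miRNAs that lay below all controls come from introns or from low counts. miR-224-5p, in an intron of Gabre on chromosome X, had 126, 103, 96.9 and 99.9 CPM in controls and 64.5, 86.3, 60.9 and 83.2 CPM after irradiation. miR-582-5p, in an intron of Pde4d, had 111, 126, 95.5 and 95.9 CPM in controls and 86.8, 66.4, 75.5 and 91.9 CPM after irradiation. Both arms of the miR-582 hairpin were lower by a similar amount, with log2 fold changes of -0.42 ± 0.18 and, for miR-582-3p, -0.44 ± 0.20 (SE). miR-1298-5p, in an intron of Htr2c, had 625, 920, 727 and 659 CPM in controls and 362, 567, 280.0 and 619 CPM after irradiation, a log2 fold change of -0.68 ± 0.27. Irradiated libraries 2 and 4 lay close to the controls, and libraries 1 and 3 were well below them. miR-297b-5p rested on 12 to 18 counts in controls and 5 to 11 counts in irradiated libraries.

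3 more miRNAs had a low p with groups that overlapped. miR-211-5p, from an intron of Trpm1, had 76.6, 49.2, 67.2 and 65.5 CPM in controls and 32.9, 49.4, 35.6 and 39.4 CPM after irradiation, and control 2 and irradiated 2 were nearly equal. let-7d-3p, the minor arm of a let-7 hairpin, had 1777, 1545, 1986 and 3212 CPM in controls and 3146, 5460, 3410 and 3084 CPM after irradiation, where control 4 lay within the irradiated range. Its log2 fold change was 0.83 ± 0.27 (adjusted p = 0.804, edgeR), while the main arm let-7d-5p stood at 21981 ± 3272 and 21818 ± 3167 CPM. miR-1264-3p had 42.6, 26.1, 42.3 and 25.5 CPM in controls and 19.1, 17.3, 16.9 and 27.95 CPM after irradiation.

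miR-208a-3p is known from heart muscle, and its hairpin lies within Myh6, which encodes cardiac alpha-myosin heavy chain (chr14:54949060-54949142, minus strand, intron). It was scarce in the lung at day 14, with 13, 52, 5 and 6 counts in controls 1 to 4 and 201, 14, 136 and 83 counts in irradiated libraries 1 to 4, or 4.02, 15.4, 1.71 and 1.85 CPM against 66.1, 4.58, 44.1 and 25.8 CPM. Irradiated libraries 1, 3 and 4 lay above all controls, and irradiated library 2 lay below control 2. By edgeR its log2 fold change was 2.59 ± 0.89 and the adjusted p was 0.804. Over 20 alternatives the fold change ran from 2.13 without irradiated library 1 to 3.79 without control 2, and the adjusted p from 0.0588 with no filter on low counts to 0.992. The exact two-sided permutation test gave p = 0.0571, or 0.25 within the 4 pairs, where 3 of 4 were higher. The other arm, miR-208a-5p, followed the same libraries at 0.927, 12.7, 1.36 and 3.69 CPM in controls and 16.4, 6.21, 21.1 and 18.3 CPM after irradiation.

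miR-1a-3p and miR-133a-3p were high in the 4 libraries that held most miR-208a. miR-206-3p and miR-208b-3p each shared 2 of those libraries among their own 4 highest. Control 2, which is among those libraries, was the highest of all for miR-206-3p, at 639.8 CPM. miR-1a-3p, shared by heart and skeletal muscle, had 607, 1444, 595 and 637 CPM in controls and 1281, 402, 1655 and 1579 CPM after irradiation. miR-133a-3p, made with it, had 106, 273, 62.1 and 81.2 CPM in controls and 155, 71.9, 164 and 155 CPM after irradiation. Control 2 and irradiated 1, 3 and 4 were the 4 highest libraries for miR-1a-3p, miR-133a-3p, miR-208a-3p and miR-208a-5p alike. The 4 highest were control 1, 2 and 4 and irradiated 1 for miR-206-3p, and control 1, 2 and 4 and irradiated 4 for miR-208b-3p. Of the 6 heart myosin miRNAs, 5 were in the table and 4 tested, 3 above 0; miR-208b-3p, from the sister myosin gene Myh7, was below 0 at 18.6 ± 2.84 and 15.3 ± 2.38 CPM. The summed level of the heart myosin list was 36.2 to 74.1 CPM in controls and 54.3 to 132.5 CPM after irradiation, and that of the striated muscle list 662 to 2373 and 487 to 1829 CPM. The part that muscle RNA has in the level of miR-208a-3p and miR-499-5p was not tested.

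Control library 2 alone carried high levels of miR-206-3p and of miRNAs of stratified epithelium. miR-206-3p, made in skeletal muscle, had 16.1, 639.8, 5.12 and 15.99 CPM in controls and 7.14 to 12.8 CPM after irradiation, and its log2 fold change of -4.12 became -0.34 without control 2. miR-205-5p, an epithelial stem and basal cell miRNA, had 61.2, 731, 37.5 and 30.1 CPM in controls and 21.3 to 38.8 CPM after irradiation, with a log2 fold change of -2.80 that became -0.46. miR-203-3p, of keratinising epithelium, had 712, 3285, 514 and 648 CPM in controls and 481 to 554 CPM after irradiation, with a log2 fold change of -1.31 that became -0.25. The summed level of the stratified epithelium list was 602.6 to 4311 CPM in controls and 558 to 626 CPM after irradiation. The liver miRNA miR-122-5p had 292, 345, 89.4 and 740 CPM in controls and 358, 2097, 79.4 and 338.5 CPM after irradiation, so its log2 fold change of 0.97 became -0.51 without irradiated library 2. miR-744-5p, from an intron of Map2k4, had 4.32, 590, 8.53 and 418 CPM in controls and 4.28 to 14.9 CPM after irradiation, while the other arm miR-744-3p stood at 40.5 ± 7.31 and 50.8 ± 7.80 CPM.

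**Figure D3:**
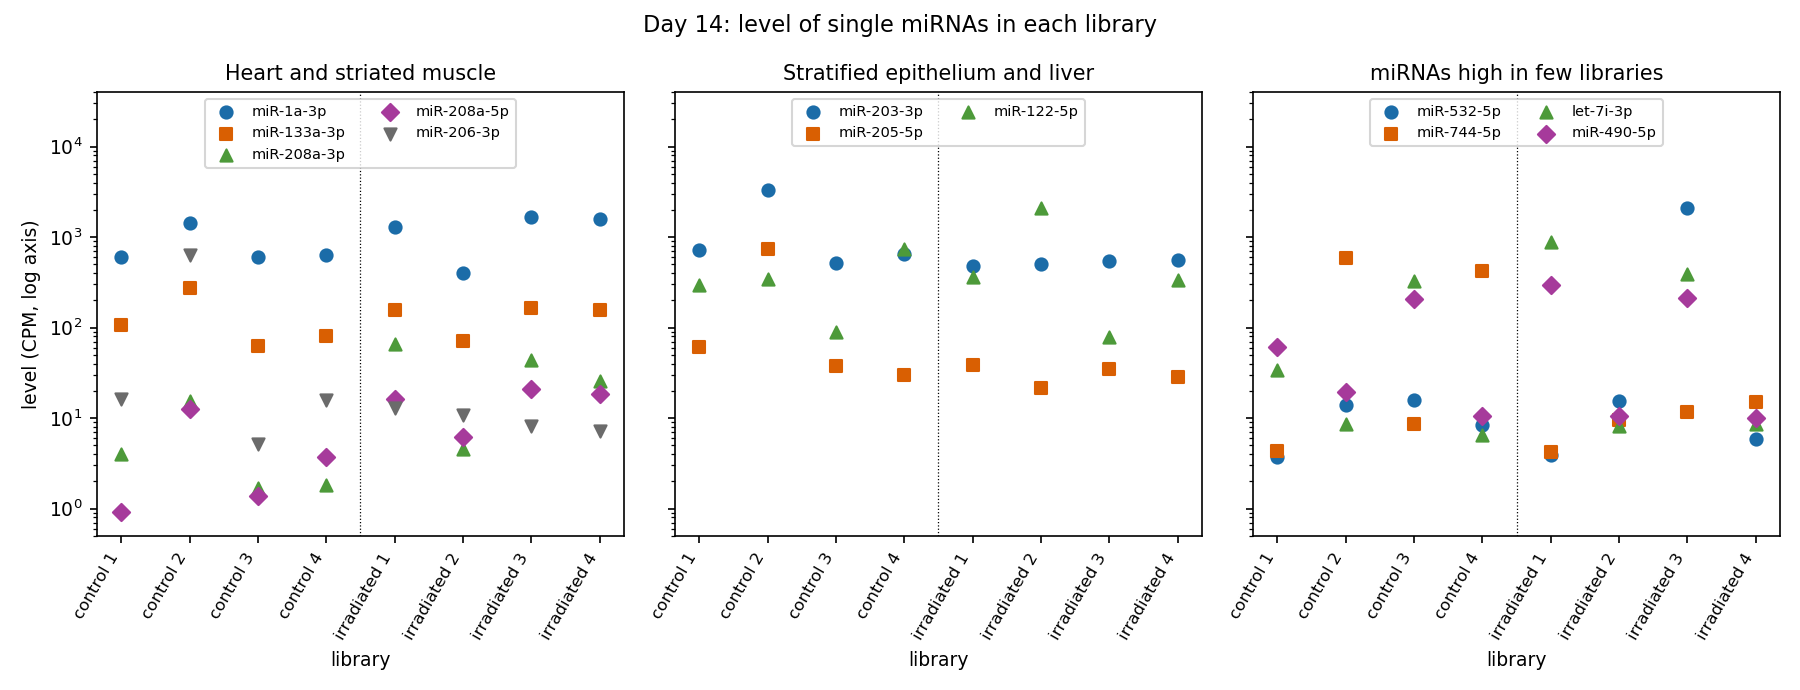
Level in CPM (vertical log axis) in each of the 8 libraries (horizontal axis, controls left of the dotted line) of muscle miRNAs, of stratified epithelium and liver miRNAs, and of miRNAs high in few libraries. Control 2 reaches 639.8 CPM for miR-206-3p, irradiated 2 reaches 2097 CPM for miR-122-5p, and irradiated 3 reaches 2074 CPM for miR-532-5p.

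Medians lay near 0 for the let-7 and fibrosis-restraining lists and between -0.27 and 0.16 for the lists of resident lung cells. The 10 let-7 seed miRNAs (seed GAGGUAG), which hold back growth genes, made up 19.4% of the CPM total and summed to 193996 ± 28102 and 194360 ± 22312 CPM. The 9 let-7 list members lay between -0.07 and 0.12, and the 10 fibrosis-restraining miRNAs, among them miR-29 and miR-30, had a median of 0.00 (5 above and 5 below 0); both medians changed sign under the RPM totals. All 3 endothelial miRNAs tested were above 0, with a median of 0.16. Of 10 epithelial miRNAs, 8 were below 0, with a median of -0.09, and of 5 ciliated cell miRNAs 4 were below 0, with a median of -0.27. Smooth muscle miRNAs (3 of 4 above 0) had a median of 0.08; miR-143-3p stood at 30552 ± 4795 and 32746 ± 1727 CPM. Fibroblast miRNAs had 5 of 6 below 0 and a median of -0.22, where miR-199a-3p and miR-199b-3p, with identical counts, were 2 of the 5 and stood at 5049 ± 779 and 3995 ± 328 CPM. None of these lists had a summed level that separated the groups.

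The erythroid list was the largest with 1 sign. All 7 tested members were above 0, against 51.9% of all miRNAs tested, with a median of 0.30, and none separated the groups. miR-144-3p, co-transcribed with miR-451a, had 1462, 992, 944 and 432 CPM in controls and 1972, 950, 1912 and 1398 CPM after irradiation. miR-451a, the main miRNA of red blood cells, had 30084 ± 3958 and 31555 ± 3038 CPM, a log2 fold change of 0.07 ± 0.12. miR-486a-5p and miR-486b-5p had identical counts in all 8 libraries, so these 2 of the 7 are 1 measurement. The labels do not state how much blood was left in each lung.

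The remaining lists were mixed. The imprinted cluster on chromosome 12 had 32 tested members of 53 in the table, 20 above 0 and 12 below 0, with a median of 0.05; miR-127-3p, its most abundant member, stood at 889 ± 105 and 1025 ± 116 CPM. The hypoxia-induced miR-210-3p and miR-210-5p had opposite signs, at -0.24 ± 0.29 and 0.29 ± 0.28. The pan-leukocyte miR-142a arms also had opposite signs, with a median of 0.13, the myeloid pair a median of -0.26, the liver pair one of 1.01 and the 3 striated muscle miRNAs one of 0.07. With 1 library left out, the liver median was as low as -0.43 (without irradiated 2) and the striated muscle median ran from -0.30 to 0.73. Of 6 neural and neuroendocrine miRNAs, 2 were above 0 and 4 below 0, with a median of -0.12. The medians of the hypoxia and striated muscle lists changed sign under the RPM totals.

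**Figure D4:**
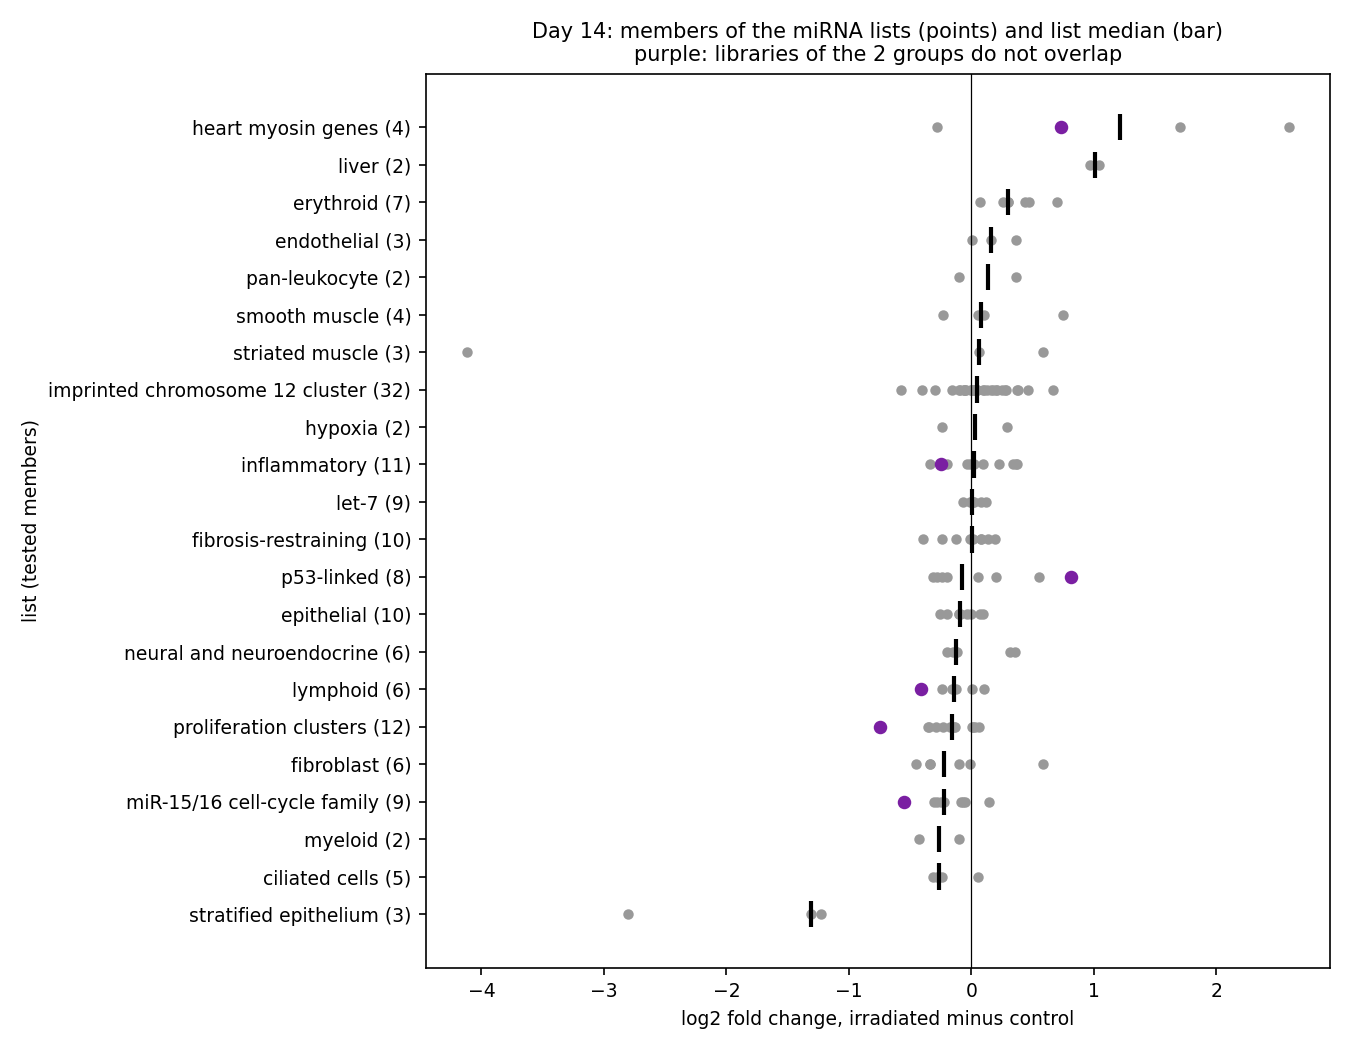
Log2 fold change of irradiated over control lungs at day 14 (horizontal axis) for the tested members of 22 miRNA lists (rows, with the number tested), with the list median as a bar; purple points are miRNAs whose groups do not overlap. The miR-15/16 list has 8 of 9 members left of 0 and the erythroid list 7 of 7 right of 0, and the wide spread of the heart, striated muscle and stratified epithelium rows comes with the library values given in the text.

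Both arms were tested for 117 hairpins, and they had the same sign in 65. Arms that several hairpins encode, such as those of miR-9 and miR-199a, were counted once for each hairpin. In 9 of the 117 both arms reached a log2 fold change of at least 0.3 in size, and 7 of these 9 agreed in sign: miR-144, miR-203, miR-208a, miR-212, miR-299a, miR-582 and miR-877. The exceptions were miR-505 and miR-744. Both arms of miR-203 were far higher in control 2 than in any other library. Of the 12 miRNAs that separated the groups, miR-34a-5p, miR-342-3p, miR-146b-5p, miR-224-5p, miR-499-5p, miR-582-5p, miR-1298-5p and miR-297b-5p are the major arm, or the one arm listed, of their hairpin in these libraries, while miR-92a-1-5p, miR-24-1-5p, miR-30e-3p and miR-503-3p are the minor one.

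The difference at day 14 was then compared with that at day 90 and day 180, each against its own 4 controls and counted in a table of its own. No miRNA differed in its radiation effect between day 14 and day 90, or between day 14 and day 180, in the edgeR interaction test (0 of 624, 0%, in both; unadjusted p under 0.05 in 28, 4.49%, and 71, 11.4%), while DESeq2 called 1 and 3. The effect on miR-34a-5p was a log2 fold change of 0.81 ± 0.16 at day 14, 0.26 ± 0.14 at day 90 and 0.42 ± 0.16 at day 180 (SE), and its groups overlapped at both later days. The difference of day 14 from day 90 was 0.54 ± 0.23 (adjusted p = 0.892, edgeR). From day 180 it was 0.40 ± 0.23 (adjusted p = 0.493, edgeR). The irradiated day 180 libraries spread more than the others. Over the 10 most abundant miRNAs the median SD was 24.5% of the mean there and 6.5 to 12.1% in the other groups. The interaction test took 1 spread per miRNA for all days, so the day 180 spread also entered the comparison with day 90.

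Of the 12 miRNAs, miR-499-5p, miR-24-1-5p and miR-342-3p also separated the groups at day 90, where 40 of 558 miRNAs (7.17%) did so. At day 180 miR-582-5p was the only one of the 12 to do so, against 66 of 552 miRNAs (12%). miR-499-5p lay above all controls at day 14 and at day 90, where its log2 fold change was 1.03 ± 0.25, and stood at 0.06 ± 0.36 at day 180. miR-24-1-5p did likewise, with 0.85 ± 0.28 at day 90 and 0.53 ± 0.28 at day 180. miR-342-3p lay below all controls at day 14 and day 90 (-0.57 ± 0.15) and had a log2 fold change of 0.38 ± 0.43 at day 180. miR-582-5p lay below at day 14 and day 180 (-1.09 ± 0.30) and was at -0.05 ± 0.28 at day 90.

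For miR-146b-5p and miR-21a-5p the log2 fold change was highest at day 180. miR-146b-5p was at -0.25 ± 0.11 at day 14, -0.29 ± 0.17 at day 90 and 0.94 ± 0.36 at day 180, and the day 14 to day 180 difference was -1.16 ± 0.35 (edgeR unadjusted p = 0.00341, adjusted p = 0.207). For miR-21a-5p the difference of day 14 from day 180 was -0.40 ± 0.13 (adjusted p = 0.207, edgeR). miR-208a-3p was at 2.59 ± 0.89 at day 14, 4.00 ± 1.21 at day 90, where all irradiated libraries lay above all controls, and -1.42 ± 1.55 at day 180. Its differences from day 14 had adjusted p-values of 0.996 and 0.438 (edgeR).

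**Figure D5:**
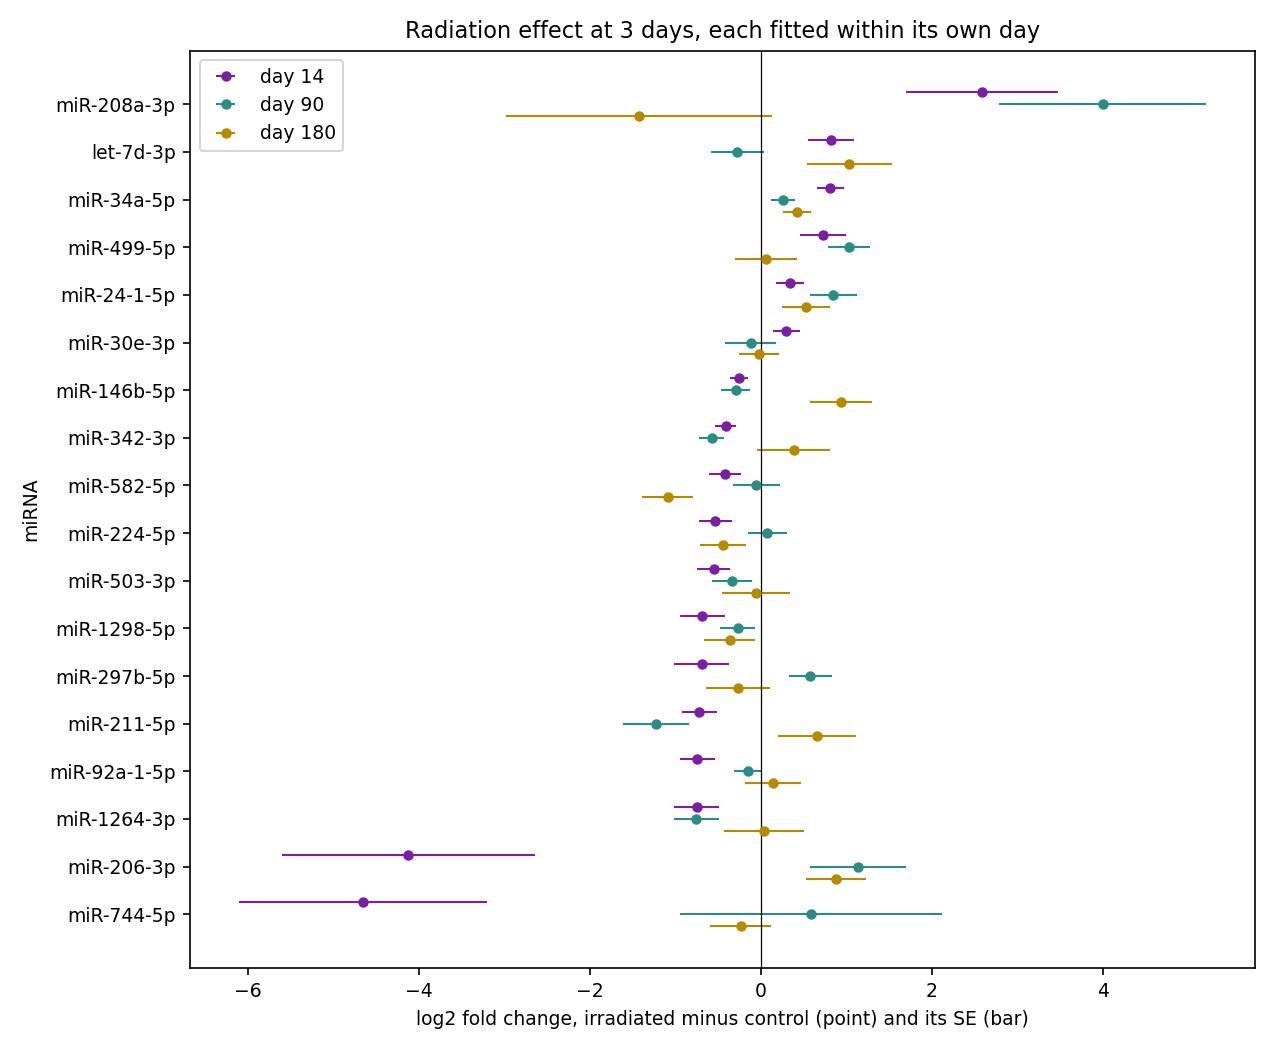
Log2 fold change of irradiated over control lungs (horizontal axis, bars show the SE) at day 14, day 90 and day 180 for 18 miRNAs, each day fitted on its own 8 libraries. miR-34a-5p has its highest point at day 14 (0.81), miR-146b-5p is below 0 at day 14 and day 90 and at 0.94 at day 180, and miR-208a-3p has the widest spread between days.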

How the data were processed

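Total RNA from lung was size-selected on a gel at 18 to 30 nt, ligated to adaptors and amplified by PCR, per the labels' protocols. The authors deposited, for each mature miRNA and library, a raw whole-number count and an RPM value, per the file headers. In the deposited RPM each count is divided by 11984009 to 12829166 at day 14, 3.72 to 4.42 times the count total of the library. The make-up of that larger total, the counting method and any molecular identifiers are not given in the sources used here, and 1 count need not be 1 molecule. The submitters' processing notes list Bowtie2 (version not given) and GRCm38.p6 without saying what each was for.

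Counts of the 8 day 14 libraries were tested with edgeR 4.0.16 (R 4.3.3): filterByExpr, TMM scaling, the quasi-likelihood F-test (legacy option), and Benjamini-Hochberg adjustment over all 499 rows at 0.05. SEs were derived from the fold change and F statistic and are approximate. Levels are TMM-scaled CPM. Differences between days came from 1 fit of 24 libraries over 624 miRNAs shared by the 3 tables. Exact permutation tests were two-sided, on log2(CPM + 1). Same-numbered libraries deviated together from their group means (r = 0.41, 0.17, 0.47 and 0.41 for numbers 1 to 4, each over 0.1). The main edgeR and permutation tests ignored these numbers. They were taken as pairs only in alternatives, the replicate block and the permutation within pairs. The highest correlation of library number 2 with another number was 0.28. The test was tried on simulated data.

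The miRNAs named are those whose groups did not overlap, the 10 with the lowest p, their other arms, miR-34a-5p and miR-208a-3p, the 10 most abundant, the 3 most abundant tested members of each of 22 lists, and 5 markers of other tissues; miR-532-5p, further list members and those of the closing section were named after their values were seen. The comparison, its members and the lists were chosen with earlier results of these data known, and lists are described by counts and medians with no test. Mature sequences came from RefSeq and host genes from GENCODE (GRCm38). Alternatives were other scalings (RLE, upper-quartile, RPM totals), no filter or a mean of at least 10 CPM, DESeq2 1.42.0, limma-voom 3.58.1, the replicate block, annotated rows only, identical rows as 1, all 24 libraries, and each library left out. The newer edgeR fit, and the alternatives for non-overlapping groups and seed families, were added after seeing the data.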

Additional observations from a re-analysis of the deposited data

Results flagged for a closer look

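Among 168 groups of 4 libraries (84 miRNAs, 2 groups each), 14 (8.3%) held 1 library far from the other 3 by Dixon's criterion. Independent, normally distributed values meet it in about 1 group in 20. The levels tested were untransformed CPM, and the 84 miRNAs include arms of 1 hairpin, markers of other tissues and miRNAs with the lowest p. The 8.3% therefore cannot be read as more than chance gives. Control 2 held 6 of the 14, each as the highest control: miR-1a-3p (1444 CPM), miR-203-3p (3285 CPM), miR-203-5p (289.5 CPM), miR-205-5p (731.4 CPM), miR-206-3p (639.8 CPM) and miR-208a-3p (15.41 CPM). Control 1 was the highest control in miR-30e-5p (1059 CPM) and miR-126b-3p (5.56 CPM). Irradiated 2 was the highest irradiated library in let-7d-3p (5460 CPM) and miR-122-5p (2097 CPM) and the lowest in miR-133a-3p (71.94 CPM) and miR-15a-5p (4715 CPM). Irradiated 1 was the lowest in let-7c-5p (28350 CPM), and irradiated 3 in miR-582-3p (25.27 CPM).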

How the results depend on the processing

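With no filter on low counts 7 of 1657 miRNAs were called (4 higher, 3 lower). Among them were miR-34a-5p, miR-744-5p (edgeR adjusted p = 0.0201) and miR-206-3p (0.0487). DESeq2 and the fit of all 24 libraries called 1 each, miR-34a-5p. Leaving out 1 library in turn gave 0 to 1 calls, the 1 being miR-34a-5p without irradiated library 4. Non-overlapping miRNAs numbered 25 of 1657 with no filter. With 1 library left out they numbered 19 to 36 of 513 to 524, where fewer libraries overlap less by construction. For a miRNA with no difference, 4 against 3 libraries separate with a probability of 0.0571, so these counts mark no miRNA as changed. In the permutation test of miR-34a-5p, the log2 difference was 0.72 to 0.99 with 1 library left out (exact p = 0.0286 to 0.0571). With the replicate block it was 0.78 (exact permutation within pairs, p = 0.125); the block in edgeR gave 0 calls, as without it, and changed no other call. For the change of the radiation effect from day 14, DESeq2 called 1 miRNA against day 90 (miR-206-3p) and 3 against day 180 (miR-196b-5p, miR-206-3p and miR-7b-5p), and leaving out 1 library gave 0 to 1 against day 180 (miR-196b-5p without control 2). The cause of these differences was not tested.

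Over 20 alternatives, 28 of 84 named miRNAs and 9 of 22 list medians changed sign at least once, 6 of the medians under another scaling. Under the RPM totals 502 miRNAs passed the filter, so the members behind a median could also differ. None of the 12 miRNAs that separated the groups changed sign. They were picked for that separation in these same libraries, which nearly fixes this outcome, so it is no sign of stability. The share of miRNAs above 0 ran from 46.2% with the RPM totals to 60.5% with upper-quartile scaling, against 51.9%. Within the 10 most abundant miRNAs mean counts spanned only 127403 to 88132 (1.45-fold); whether counts stay proportional to RNA at this height was not tested.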

Other observations

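Some miRNAs jumped between libraries of 1 group. Of 200 annotated miRNAs with a mean of at least 100 CPM, 9 differed at least 10-fold between the highest and lowest library of a group. miR-532-5p stood at 2074 CPM in irradiated library 3 and at 3.71 to 15.7 CPM in the other 7 libraries, and its other arm miR-532-3p had 0 counts in irradiated 3 and in control 3. let-7i-3p had 33.98, 8.59, 327 and 6.46 CPM in controls 1 to 4 and 883, 8.18, 387.5 and 8.70 CPM in irradiated libraries 1 to 4. miR-490-5p followed the same libraries, at 60.6, 19.3, 207 and 10.4 CPM and 293, 10.5, 209.7 and 9.94 CPM, so both were high in libraries numbered 1 and 3 of either group and low in those numbered 2 and 4. miR-27a-5p had 12.4 CPM in control 1 and 159 to 271 CPM in the other 7 libraries. miR-33-5p ranged from 258 to 3503 CPM in controls and from 980 to 4519 CPM in irradiated lungs, miR-326-3p from 44.3 to 668 and from 124 to 364.5 CPM. The labels give no extraction or sequencing batch for these libraries, and no cause was tested.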
